A study of Mus musculus with 10 samples.

Results

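A dense chain is a run of at least 6 accessible sites away from promoters in which each site lies 5000 bp or less from the next. The 542 chains on chromosomes 1 to 19 of the mouse genome were chosen by position alone, from the list of all ATAC-seq sites of the study. Sites that overlapped the 1 kb on either side of an annotated transcript start were set aside as promoter sites, and the remaining distal sites were sorted and joined to a neighbour whenever the gap between them was 5000 bp or less. Of the 153924 sites in the list, 150083 lie on chromosomes 1 to 19, 25744 of these are promoter sites and 124339 are distal. The chains hold 3746 of the distal sites, or 3.01% (95% Wilson interval 2.92 to 3.11), which leaves 120593 other distal sites.

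ATAC-seq uses a transposase that cuts DNA where nucleosomes leave it exposed, so that stretches with many cuts mark open chromatin. The cells were iMEF, immortalized mouse embryo fibroblasts of 1 clone, in which both endogenous Ash2l alleles had been inactivated by loss of an exon and which grew on a lentiviral fusion of a degradable FKBP tag to human ASH2L, which KMT2 methyltransferases need to mark histone H3 at lysine 4. All 5 groups carried the same alleles and the same construct, and each had 2 replicates: untreated cells, labelled WT and given the ethanol vehicle according to the methods, and cells given the degrader dTAG for 30 min, 4 h, 8 h or 24 h. The list gives each site once for all 10 libraries, with chromosome, start and end only. No site has a value per library, so the chains carry no replicate error, no depth and no comparison between groups, and what follows describes where the sites lie and what sequence they hold.

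Distal accessible sites include enhancers, which bind transcription factors and act on promoters over a distance, and sites of CTCF, the factor that with cohesin anchors chromatin loops. Runs of neighbouring enhancers are a known feature of genes that a cell type expresses strongly, and in fibroblasts such genes include those of the extracellular matrix and the contractile cytoskeleton. AP-1, the dimer of Fos and Jun proteins, binds the letters TGACTCA on either strand and is a frequent occupant of fibroblast enhancers. The label of the cells was checked against marker genes. A site lay within 1 kb of a start of 14 of 15 fibroblast markers, among them Col1a1, Col1a2, Pdgfra, Pdgfrb, Thy1 and Twist1, and Lum was the marker without one. The same was found for 14 of 25 markers of other lineages, among them Sox2, Epcam and Pax6, so an open promoter did not by itself separate the 2 lists. Ptprc, Cd3e, Spi1, Krt5, Krt14, Nanog, Alb, Hnf4a, Ins2, Pdx1 and Myod1 had no site at a start.

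The sequences that follow were taken from the GRCm38 (mm10) genome of RefSeq, plus strand, and each is the middle 200 bp of 1 site. The first 3 lie in the longest chain, at Col5a2, and show its only AP-1 match, its only match to the core of the CTCF motif (a run of fixed and free letters, of which the capitals show 1 instance) and a site over the last coding exon of the gene. The other 3 are the widest AP-1-matching sites of the chains of ranks 2, 3 and 4 by number of sites. Annotated repeats cover 95.5% of the last of these sequences, and lower case does not mark repeats here. Capitals mark the motif match or, in the coding exon, the 144 coding bases, which read on the opposite strand because Col5a2 runs on the minus strand.
Col5a2 chain, AP-1 match (chr1:45394731-45394930): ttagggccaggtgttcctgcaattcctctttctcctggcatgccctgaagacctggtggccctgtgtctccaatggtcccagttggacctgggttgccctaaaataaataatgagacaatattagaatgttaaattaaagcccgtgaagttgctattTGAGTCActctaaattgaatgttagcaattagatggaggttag
Col5a2 chain, CTCF match (chr1:45432016-45432215): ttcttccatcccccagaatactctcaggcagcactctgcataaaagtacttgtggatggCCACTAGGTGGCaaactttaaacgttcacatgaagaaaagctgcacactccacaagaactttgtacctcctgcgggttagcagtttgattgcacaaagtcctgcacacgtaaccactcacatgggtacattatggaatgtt
Col5a2 chain, coding exon (chr1:45376070-45376269): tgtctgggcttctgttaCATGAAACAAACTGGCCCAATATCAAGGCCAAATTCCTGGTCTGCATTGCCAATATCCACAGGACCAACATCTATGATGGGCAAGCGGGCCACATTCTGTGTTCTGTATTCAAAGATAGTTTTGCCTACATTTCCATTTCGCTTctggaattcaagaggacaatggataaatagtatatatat
Icosl to D10Jhu81e chain, AP-1 match (chr10:78127462-78127661): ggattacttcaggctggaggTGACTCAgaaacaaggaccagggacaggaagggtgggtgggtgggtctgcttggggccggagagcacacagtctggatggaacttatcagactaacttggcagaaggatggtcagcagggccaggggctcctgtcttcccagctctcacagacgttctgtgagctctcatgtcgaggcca
Kcnmb4 chain, AP-1 match (chr10:116426210-116426409): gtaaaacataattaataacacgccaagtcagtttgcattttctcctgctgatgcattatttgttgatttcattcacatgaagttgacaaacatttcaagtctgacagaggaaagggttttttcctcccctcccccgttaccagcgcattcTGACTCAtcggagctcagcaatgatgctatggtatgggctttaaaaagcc
Hrh1 to Atg7 chain, AP-1 match (chr6:114509091-114509290): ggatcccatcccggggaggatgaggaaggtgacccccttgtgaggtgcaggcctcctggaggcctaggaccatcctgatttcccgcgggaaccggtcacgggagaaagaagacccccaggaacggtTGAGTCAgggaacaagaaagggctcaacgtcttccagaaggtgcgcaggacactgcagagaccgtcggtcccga

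Most chains were short. Of the 542 chains, 315 held exactly 6 sites, the median was 6, the upper quartile was 7 and only 33 held 10 or more. The rule cut through a steady decline in numbers: 760 runs of 5 sites fell just outside it and 315 runs of 6 just inside, after 2086 runs of 4 and 5956 of 3. Sites in runs of 6 had a median width of 498 bp, against 525.5 bp in runs of 5. An AP-1 match was found in 14.5% against 15.3% of sites, and a CTCF match in 4.60% (3.75 to 5.64) against 5.95% (5.24 to 6.74). Chains spanned 4062 to 60986 bp, with a median of 17133 bp, and the gaps inside them had a median of 2255.5 bp, with 27.2% under 1 kb.

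The name dense holds for these runs, as the rule made it. The median chain had 3.86 sites per 10 kb of its own length, against a median of 1.01 sites per 10 kb within 500 kb on either side, and the surroundings of 263 chains (48.5%) held fewer than 1 site per 10 kb. The density of a chain counts its distal sites only, while the values for surroundings, here and below, include promoter sites. The sites themselves covered a median of 22.8% of a chain. All chains together spanned 9.69 Mb, 0.394% of chromosomes 1 to 19, of which the sites covered 2.18 Mb. The densest run, 6 sites in 4062 bp beside Snx5, reached 14.8 sites per 10 kb.

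Chains lay both in and between genes. In 274 chains (50.6%, 46.4 to 54.7) most sites fell inside the body of a protein-coding gene, in 250 every site did, and in 215 (39.7%) none did. The nearest start of a protein-coding gene was a median of 16946 bp away, within 10 kb for 201 chains and over 100 kb away for 71. A promoter site interrupted 32 chains (5.90%). Of the chain sites, 53.7% (52.1 to 55.3) had their middle in a protein-coding gene, against 46.8% (46.5 to 47.1) of the other distal sites. There was no step at the rule, with 50.8% (49.2 to 52.4) in runs of 5 and 50.5% (48.3 to 52.8) in runs of 6. The share was 45.6% in single distal sites and 63.5% (58.7 to 68.1) in chains of 10 or more. The intervals cover the counting of sites only, and since the sites of a chain share a location and often a gene they are narrower than independent regions would give.

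The longest chain lay in Col5a2, which encodes a chain of type V collagen, the collagen that sets the diameter of fibrils. Its 29 sites ran over 60986 bp (chr1:45371699-45432684), and 28 of them were inside the gene. Its sites were narrow, with a median of 339 bp and a range of 185 to 1138 bp, and 10 were under 300 bp. Of the 29, 12 overlapped a coding exon. A match to AP-1 was found in 1 site and to CTCF in 1, the site of 1138 bp that ends the chain. Among the other chains of at least 12 sites, the most coding sites was 4, in the chain at Plec.

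**Figure D1:**
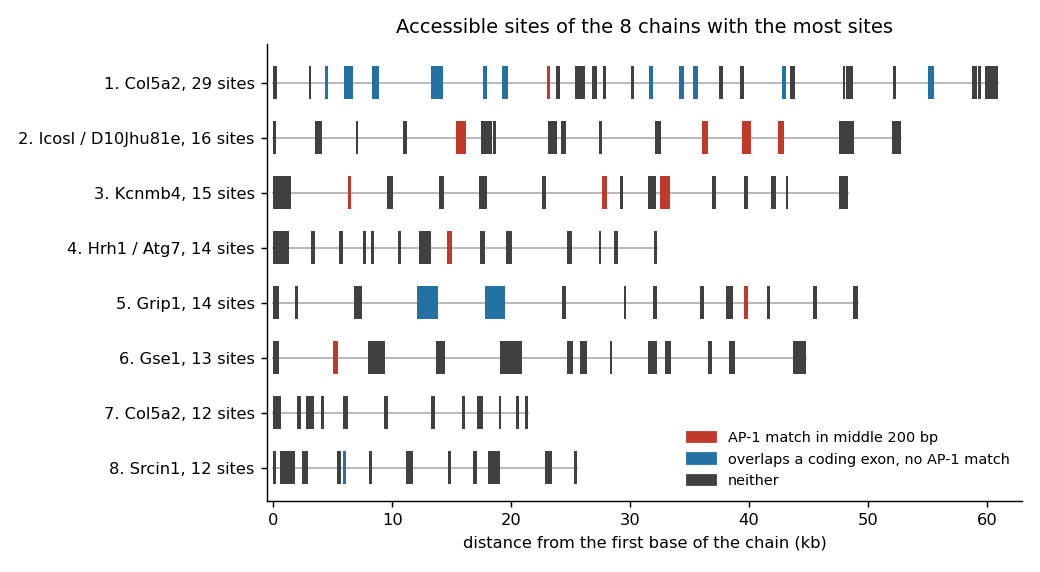
Each row maps 1 of the 8 chains with the most sites, with distance in kb from the first base of the chain on the x axis and each box a site drawn to scale, red where its middle 200 bp match AP-1, blue where it overlaps a coding exon without such a match. The 29 sites of the Col5a2 chain include 12 over coding exons and 1 with an AP-1 match, whereas the Icosl to D10Jhu81e chain has 4 AP-1 matches among 16 sites.

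Col5a2 did not hold this chain alone. Another chain, of 12 sites, lay further upstream in its introns (chr1:45445910-45467354), a chain of 7 sites spanned its start (chr1:45478990-45505202), and a chain of 11 sites covered the end of the neighbouring Col3a1 (chr1:45337236-45363396), which encodes type III collagen of elastic tissues. The 4 chains held 59 sites within 168.0 kb. With the 5 further sites between them, this interval carried 3.81 sites per 10 kb, against 0.77 within 500 kb on either side. Of the 11 sites at Col3a1, 5 were in the gene and 4 of these overlapped coding exons, and 6 of the 11 were narrower than 300 bp. The chain at the Col5a2 start differed in shape, with a median width of 588 bp and no site under 300 bp.

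**Figure D2:**
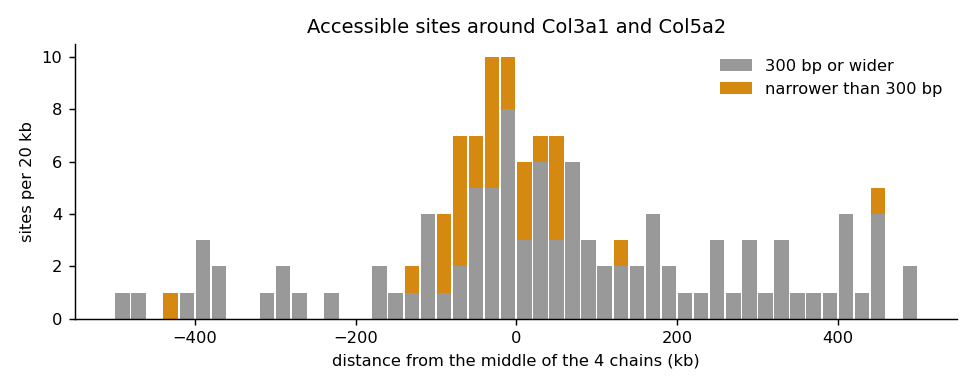
Bars give the number of accessible sites in each 20 kb, promoter sites included, against distance in kb from the middle of the 4 chains at Col3a1 and Col5a2, split into sites under 300 bp (orange) and wider sites (grey). Within 80 kb of the middle every 20 kb holds 6 to 10 sites, and most of the narrow sites of the 1 Mb shown lie there.

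Coding sequence made up more of these chain sites than of the whole gene bodies. In Col5a2, 6.30% of the bases in chain sites were coding, against 3.48% of the gene body. In Col3a1 the values were 39.1% and 11.5%. The chains cover only parts of these genes, and all 12 coding sites of Col5a2 lay in its longest chain. The coding share of the chain spans was not computed, so the position of the exons may account for the contrast, which was not tested. Over the 4 chains together, 27.1% of sites (17.4 to 39.6) overlapped a coding exon, compared with 4.00% of all chain sites and 4.29% of other distal sites, and an AP-1 match was found in 5.08% (1.74 to 13.9). Sites whose middle consists mostly of 31-base words that occur more than once in the genome, called multicopy here, made up 8.47% of these 59 sites (3.67 to 18.4), against 2.16% of other distal sites. Annotated repeats covered 28.6% of the middle 200 bp on average, against 15.6% for other distal sites. Whether repeats or width had a part in the number of sites called there was not tested.

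The chain of rank 2, with 16 sites over 52790 bp of chromosome 10 (chr10:78111761-78164550), lay between Icosl, the ligand of the T-cell costimulator ICOS, and D10Jhu81e. Only 1 of its sites was inside a protein-coding gene, 4 had an AP-1 match and none a CTCF match, and its median width of 514 bp was above that of the Col5a2 chain. The chain of rank 3, of 15 sites (chr10:116393380-116441721), had 9 sites in Kcnmb4, which encodes a regulatory subunit of calcium-activated potassium channels, and 3 with an AP-1 match. Both were on chromosome 10 in surroundings that were already rich, at 1.98 and 1.63 sites per 10 kb.

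The chain of rank 4 stood apart in its sequence. Its 14 sites (chr6:114494388-114526637) lay between Hrh1, the histamine H1 receptor, and Atg7, an enzyme of autophagy. Of these, 13 were multicopy, annotated repeats took 42.1% of their middles, and the median GC content was 61.8%. The AP-1-matching site of this chain, whose sequence is shown above, was among the multicopy sites. Another chain, of 8 sites (chr6:114538323-114560222), followed it, and all 8 of those were multicopy too. Reads from such sequence can belong to more than 1 place in the genome, and the methods say only that unusable reads were filtered by ENCODE guidelines, without saying how reads with several matches were treated.

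Of the other leading chains, 6 lay wholly inside 1 protein-coding gene. Grip1, a scaffold for glutamate receptors, held all 14 sites of the chain of rank 5, 2 of them over coding exons. Gse1 held the 13 of rank 6. Srcin1, an inhibitor of the kinase Src, held the 12 of rank 8, of which 1 overlapped a coding exon, with a median width of 314 bp and no AP-1 or CTCF match. Maml2, a coactivator of Notch, and Gab1, an adaptor of receptor tyrosine kinases, held 12 each. The Gab1 chain had the widest sites of these, with a median of 726 bp and none under 300 bp, in surroundings of only 0.45 sites per 10 kb. Ppm1h, a protein phosphatase, held another 12.

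Other leading chains were not bound to 1 gene. The chain at Plec, which encodes the cytoskeletal linker plectin, had 5 of its 12 sites in that gene, and 4 of the 12 overlapped coding exons. The chain at Ube2g2, a ubiquitin-conjugating enzyme, had 5 of its 11 sites there and was compact, with 11 sites in 16020 bp. A chain of 12 sites lay between Lrrc74a and Irf2bpl with a median width of 665.5 bp. In contrast, the chain of rank 10 lay 643130 bp from the nearest protein-coding start, that of Trhde, with Atxn7l3b on its other side. Its 12 sites had a median width of 236.5 bp, 8 were under 300 bp, none had an AP-1 match, and repeats took 41.5% of their middles.

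By gene rather than by chain, the model Gm20388 held the most chain sites, 54, but it is annotated as 1 gene of 4435 kb that runs over many others. Col5a2 followed with 46, then Nav3, which encodes a protein of growing microtubule ends, with 21, and Grip1 and Maml2 with 20 each. The sites per gene followed length only in part, since Col5a2 is 129.0 kb long, Maml2 411.4 kb, Grip1 633.4 kb and Nav3 774.9 kb.

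Gene lists for the functions of fibroblasts were then set against the chains, counting a gene where a chain lay within 50 kb of one of its starts. Of all 20807 protein-coding genes on chromosomes 1 to 19, 743 did (3.57%, 3.33 to 3.83). Among 44 matrix genes 10 did (22.7%, 12.8 to 37.0), and among 51 genes of the cytoskeleton and focal adhesions 14 did (27.5%, 17.1 to 40.9). The share was 4.47% for protein-coding genes of 30 to 120 kb and 4.56% for those with a promoter site. Among listed genes of 30 to 120 kb the shares were 28.6% (6 of 21) for the matrix and 33.3% (6 of 18) for the cytoskeleton. Genes that share a chain, as Col3a1 with Col5a2 and Col4a1 with Col4a2 do, were each counted. The intervals are therefore narrower than independent genes would give. The lists were drawn up with earlier results of these data known, so these shares are descriptions.

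**Figure D3:**
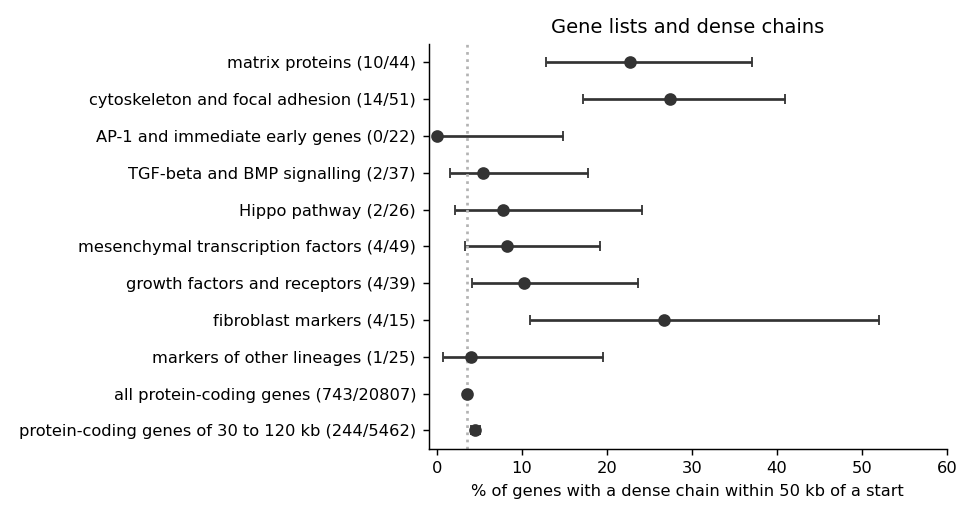
Points give the percentage of each gene list with a dense chain within 50 kb of a transcript start, bars the 95% Wilson interval and the dotted line the value of all protein-coding genes, 3.57%. The matrix, cytoskeleton and fibroblast marker lists lie at 22.7%, 27.5% and 26.7%, while the list of AP-1 and immediate early genes is at 0 of 22.

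Among matrix genes, the 2 fibrillar collagens described above came with 5 further collagens. Col12a1, a collagen that decorates fibrils, held a chain of 9 sites, of which 5 were under 300 bp and 3 coding. Col4a1, a basement membrane collagen, held a chain of 8 sites, which lay 4047 bp from the nearest of its starts and also within 50 kb of its divergent partner Col4a2. Because the 4 genes with the largest chains were the ones to be described, the rest are given by name only: Fn1, Col5a1, Col6a1, Efemp1 and Tgfbi. Together, 12 chains with 115 sites lay near matrix genes, with a median width of 394 bp and AP-1 matches in 7.83% of sites (4.17 to 14.2). The 4 chains at Col3a1 and Col5a2 supply 59 of these 115 sites, and without them the other 8 chains, with 56 sites, had a median width of 492 bp and AP-1 matches in 10.7% (5.00 to 21.5).

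Among cytoskeletal genes, Actn1, an actin crosslinker of focal adhesions, had 9 sites 5326 bp from a start, Itga3, the integrin alpha 3 subunit, had 9 sites 8476 bp away, Myh9, nonmuscle myosin, held 8, and Pdlim5, a linker at actin bundles, held 8. The remaining 10 genes of the list with a chain had 6 to 8 sites each. Over 16 chains with 112 sites the median width was 606 bp and 17.9% of sites (11.9 to 26.0) had an AP-1 match. The intervals of the AP-1 shares near matrix and cytoskeletal genes overlap, and their difference was not tested.

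The regulatory lists had lower shares than the matrix and cytoskeletal lists, with wide intervals. The share of all protein-coding genes, 3.57%, stands beside them. None of 22 AP-1 and immediate early genes was near a chain (0%, interval up to 14.9%), and these genes are short, with a median of 6.06 kb. Among all protein-coding genes under 30 kb the share was 2.64%, which lies inside that interval. In the TGF-beta and BMP list 2 of 37 genes were near a chain (5.4%, 1.5 to 17.7). They were Grem1, a secreted BMP antagonist, and Smad6, an inhibitory Smad. In the Hippo list 2 of 26 genes were near a chain (7.69%, 2.14 to 24.1). They were Ccn2, a secreted matricellular target of the pathway, and Tead1, one of its DNA-binding factors. The chain near Ccn2 held 8 sites, 25710 bp from its start, with CTCF matches in 3 and AP-1 matches in none.

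Among 49 mesenchymal transcription factors 4 were near a chain (8.16%, 3.22 to 19.2), against 3.57% of all protein-coding genes. Tcf7l2, the Wnt effector, held 16 chain sites in all and a chain of 9. Nfix held 8 sites, Foxp1 13 in all with 7 in its nearer chain, and Zeb2, a repressor of epithelial genes, 6. Among 39 growth factors and receptors 4 were near a chain (10.3%, 4.06 to 23.6). Csf1, the macrophage growth factor, had 11 sites 26586 bp away, and Fgfr1 had 6 sites 5096 bp away. Igfbp4, a binding protein of insulin-like growth factors, had 9 sites 47699 bp away, and Pdgfb had 6 sites 46295 bp away. The chain counted for Igfbp4 lay nearer to Tns4, 5704 bp from a start of that gene. Of the fibroblast markers 4 of 15 were near a chain (26.7%, 10.9 to 52.0), all collagens or fibronectin that the matrix list also holds. Among markers of other lineages 1 of 25 was (4.0%, 0.71 to 19.5), Nkx2-5, with a chain of 6 sites 42814 bp away. The 2 intervals overlap. The fibroblast markers are also longer, with a median of 36.7 kb against 10.3 kb, and the part of length was not tested. Within 100 kb the counts were 5 of 15 and 3 of 25.

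Sites in chains were somewhat narrower than other distal sites, with a median of 498 bp (quartiles 298 and 777.75) against 569 bp (338 and 861). Sites under 300 bp made up 25.4% (24.0 to 26.8) of chain sites and 20.2% of the others, and 50% or more of the sites were under 300 bp in 90 chains (16.6%). The difference in median width, -71 bp, depended on the gap allowed: it was -201 bp for chains built with gaps up to 2500 bp and 14 bp in the other direction with gaps up to 10000 bp. Since width enters the gap between sites, and a wide site can cover what would otherwise be 2 sites, these values describe the rule as much as the sites.

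Motif matches were counted as exact letters on either strand in the middle 200 bp of each site. AP-1 matches were found in 13.9% (12.8 to 15.0) of chain sites and 16.3% (16.1 to 16.5) of other distal sites, compared with 2.82% of 225773 windows of the same length placed every 10 kb outside sites. The share in chain sites thus lay well above that in the windows and somewhat below that in other distal sites. The difference, -2.45 percentage points, kept its direction under all 14 alternatives tried, from -8.76 with gaps up to 2500 bp to -1.21 among wide sites only. The value among wide sites rests on 3 chains, and its interval, from -12.0 to 21.3, leaves the direction there unsettled. The difference was also negative when all distal sites were divided by the quartiles of width (337, 567 and 859 bp): 11.4% against 13.3% among the narrowest, then 13.2% against 16.0%, 16.3% against 18.7%, and 15.7% against 17.3% among the widest. The intervals of these pairs overlap, except for 13.2% (11.3 to 15.5) against 16.0% (15.6 to 16.4). Leaving out the 4 chains at Col3a1 and Col5a2 gave -2.30.

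CTCF matches showed a similar order, in 4.62% (3.99 to 5.34) of chain sites, 6.71% (6.57 to 6.86) of other distal sites and 0.937% of the windows. Inside chains, 4.13% (3.44 to 4.96) of inner sites and 5.81% (4.57 to 7.37) of the first and last sites had a match, with intervals that overlap. Chains with most sites in a protein-coding gene had a match in 3.54% of sites (2.81 to 4.47) and those with a start within 10 kb in 6.12% (4.99 to 7.49), while those over 100 kb from any start had one in 2.12% (1.16 to 3.86).

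The other motifs separated chain sites from other distal sites less. TEAD letters (ACATTCC), bound by the DNA-binding partners of the Hippo pathway, were found in 6.43% of both. RUNX letters (TGTGGTT) were found in 8.06% (7.23 to 8.98) against 8.85% (8.69 to 9.01), E-box letters (CAGCTG) in 12.8% (11.8 to 13.9) against 12.1% (11.9 to 12.3), ETS letters (CCGGAAG) in 0.854% against 0.828%, the NFI core (TTGGCA) in 14.4% against 14.6%, and the CArG box of serum response factor in 1.39% against 1.50%. In the windows outside sites the values were 2.58% for TEAD, 4.63% for RUNX, 7.22% for the E-box, 0.545% for ETS, 9.73% for NFI and 1.15% for the CArG box. A match is a run of letters and not a measured binding event.

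Width and the shares of AP-1, CTCF and RUNX matches fell with the number of sites in a run. AP-1 matches were found in 16.8% (16.5 to 17.2) of single distal sites, 16.0% of sites in pairs, 15.7% in runs of 3 to 5, 14.6% (13.4 to 15.8) in chains of 6 to 9 and 8.10% (5.80 to 11.2) in chains of 10 or more. CTCF matches went from 7.33% through 6.42%, 5.91% and 4.74% to 3.54% (2.12 to 5.86). RUNX matches went from 9.06% (8.82 to 9.30) through 8.91%, 8.40% and 8.36% to 5.57% (3.71 to 8.29). The remaining motifs had no steady order over these classes. Median GC content rose, from 44.5% through 45.0%, 46.0% and 46.5% to 47.0%. Median widths were 587, 573, 541, 504 and 413 bp. The 33 chains of 10 or more hold 395 sites, and without those at Col3a1 and Col5a2 the values there were 8.75% (6.20 to 12.2) for AP-1, 3.79% (2.23 to 6.38) for CTCF and 447 bp. The RUNX value without them was 6.12% (4.04 to 9.18), with an interval that overlaps that of single sites. Multicopy sites made up 2.36% of single sites, 2.02% of sites in pairs, 1.95% in runs of 3 to 5, 3.55% (2.98 to 4.23) in chains of 6 to 9 and 6.33% (4.32 to 9.18) in chains of 10 or more. Their part in the AP-1 values was not tested by length. Over all chains pooled, the AP-1 difference was -1.96 percentage points without them, a value that does not describe the length classes. The part of chromosomes 10 and 15 was not tested by length either. Chain sites there had a median width of 438 bp against 521 bp elsewhere, and CTCF matches in 3.13% against 5.22%.

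**Figure D4:**
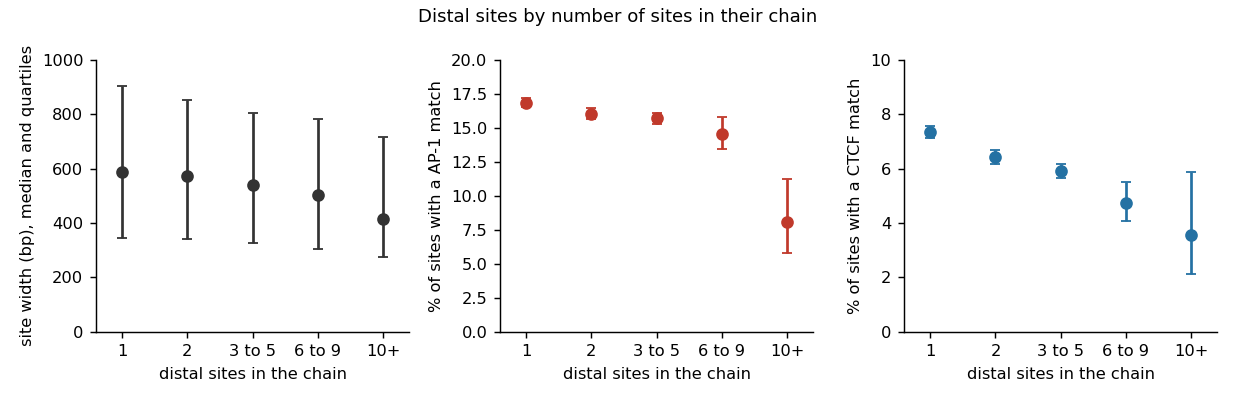
Distal sites are grouped on the x axis by the number of sites in their run, and the panels give site width in bp (median with quartiles) and the percentage of sites with an AP-1 or a CTCF match (95% Wilson intervals). All 3 measures are lowest in chains of 10 or more sites, at 413 bp, 8.10% and 3.54%.

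Counts of matches differed between chains. The counts that independent sites with the same shares would give were not computed. At least 1 AP-1 match was present in 333 chains (61.4%, 57.3 to 65.4), at least 3 in 39 and none in 209, and a CTCF match was present in 144 (26.6%). In 20 chains 50% or more of the sites had an AP-1 match. These genes were chosen after their values were seen: the list includes 8 sites in Ddr2, a receptor for fibrillar collagen, with 4 matches and 6 in Ror2, a Wnt5a receptor, with 3. Their surroundings held 0.96 and 1.18 sites per 10 kb.

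2 further small sets were defined by sequence and, like the AP-1-rich chains, were singled out after their values were seen. In 7 chains 50% or more of the sites overlapped coding exons, and in Ahnak, which encodes a giant scaffold protein of the cell cortex, all 6 sites of a chain did, with a median width of 240 bp. In 12 chains 50% or more of the sites were multicopy, with neighbours such as Speer4e, Gm10354 and Prl2c3. Without multicopy sites 501 chains were left.

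Chromosomes 10 and 15 held more chains than any other. There were 79 on chromosome 10 (0.622 per sequenced Mb) and 73 on chromosome 15 (0.725 per Mb), against 0.135 to 0.295 per Mb on the other 17, whose median was 0.160. The 2 chromosomes thus had 152 of the 542 chains with 14.5% of the distal sites, and 7 of the 15 leading chains. As a share of each chromosome's distal sites, chains took 6.30% (5.82 to 6.81) on chromosome 10 and 5.77% (5.30 to 6.27) on chromosome 15, against 1.75% to 3.52% elsewhere.

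The density of distal sites moved with this. It was 72.3 per Mb on chromosome 10 and 87.2 per Mb on chromosome 15, against 40.9 to 60.9 per Mb on the others. Within chromosome 10 the change came partway along. Up to 75 Mb there were 15 chains, which took 2.68% (2.22 to 3.24) of the distal sites at 54.7 sites per Mb, and beyond 75 Mb there were 64, which took 8.98% (8.24 to 9.78) at 94.9 sites per Mb. The position of 75 Mb came from earlier results of these data. A rule with a fixed gap finds more chains wherever sites are closer together, so the number of chains and the density of sites cannot be told apart here.

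**Figure D5:**
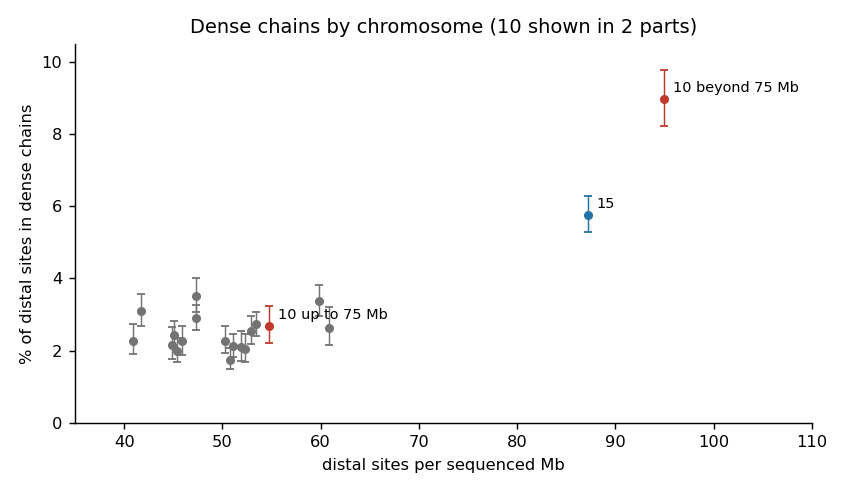
Each point is a chromosome, with distal sites per sequenced Mb on the x axis and the percentage of distal sites that lie in dense chains on the y axis (bars, 95% Wilson intervals), and chromosome 10 is shown as its parts up to and beyond 75 Mb. Chromosome 15 (87.2 per Mb, 5.77%) and chromosome 10 beyond 75 Mb (94.9 per Mb, 8.98%) lie apart from the rest, while chromosome 10 up to 75 Mb (54.7 per Mb, 2.68%) lies among them.

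Chain sites on these 2 chromosomes were narrower than chain sites elsewhere, with medians of 438 and 521 bp, and 30.8% (28.1 to 33.6) against 23.1% (21.6 to 24.8) were under 300 bp. CTCF matches were found in 3.13% (2.25 to 4.35) against 5.22% (4.44 to 6.14), and AP-1 matches in 12.6% (10.8 to 14.7) against 14.4% (13.1 to 15.8). The other distal sites of the 2 chromosomes leaned the same way, with a median of 531 bp against 575 bp and CTCF matches in 5.19% against 6.96%. Without chromosomes 10 and 15 the AP-1 difference between chain and other distal sites was -2.20 percentage points and the width difference -54 bp.

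Chains also neighboured each other. In 27 cases 2 chains lay within 50 kb, and the largest such groups were the 4 chains of 59 sites at Col3a1 and Col5a2 and 4 chains of 30 sites within 137.7 kb at Col18a1, the collagen that gives rise to endostatin. Col18a1 held 15 chain sites in its body and lies on chromosome 10 beyond 75 Mb. Actn1 and Myh9, both named above, each had a pair, of 16 and 14 sites.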

How the data were processed

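ATAC-seq was performed on 10 libraries, 2 for each of 5 groups. Per the methods and the submitters' processing notes, the authors trimmed reads, aligned them to mm10 with BWA, filtered with SAMtools, merged replicates and called narrow peaks with MACS2. Versions are not given in the sources used here. The deposited list holds positions (chromosome, start, end) of sites found across all samples, with no count, signal, fold or p-value, so depth is unknown and no test was run. The study's list of changed sites was not used here. Starts were read as 0-based, as in BED files, and positions are printed from 1.

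Distal sites were those not overlapping 1 kb on either side of any of 125891 transcript starts of GENCODE vM21, and chains were built as described above. GENCODE also gave gene bodies and coding exons. Sequence came from the GRCm38 assembly of RefSeq, and soft-masked letters were taken as repeats. A site was multicopy where over 50% of 31-base words, taken every 10 bp of its middle 200 bp, occurred more than once in chromosomes 1 to 19, X and Y. Intervals are 95% Wilson intervals and cover the counting of sites only. The 5 values recomputed under alternatives were the number of chains, the share of distal sites in them, the share in genes, and the AP-1 and width differences.

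The members, the gene lists and the motifs were chosen with earlier results of these data known. Chains named were the 15 with the most sites, then the 5 genes with the most chain sites and up to 4 genes of each list with the largest chains, and the few others are given as such. Of the listed genes, Bgn and Flna lie on chromosome X, and Mkl1, Cyr61 and Ctgf are older symbols, so these 5 were not matched. The lists also held Mkl1 and Ctgf under their current symbols, Mrtfa and Ccn2, which were matched and counted. Scripts were tested on simulated data, where 2000 of 2000 planted chains were found. Python 3.11.15 with NumPy 2.4.6, pandas 2.3.3, SciPy 1.17.1, Numba 0.67.0 and Matplotlib 3.10.9 was used.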

Additional observations from a re-analysis of the deposited data

Results flagged for a closer look

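A signal appeared in sequences that the comparisons above do not use. Outside chromosomes 1 to 19 the list holds 3841 sites, and the same gap and least number of sites gave 10 chains of 6 or more sites among them, with 97 sites in all. Of these chains, 9 were on unplaced or unlocalized scaffolds and 1 on chromosome Y, while the 2897 distal sites of chromosome X formed 0. The longest, on a scaffold, held 32 sites. It was not checked that promoter sites had been set aside on the scaffolds. The chains there are given as runs of sites of any kind, and are not comparable with the distal chains above.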

How the results depend on the processing

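No paired analysis was possible because each site is given only once for all libraries, and for the same reason no replicate could be left out in turn. The number of chains was 542 and moved to 33 and 3445 with gaps of 2500 and 10000 bp, to 3 when narrower sites than the median were removed, and to 1302 and 111 with at least 5 and at least 8 sites. The share of distal sites in chains, 3.01%, became 0.171% and 22.7% with those gaps, 0.032% among wide sites, 6.07% and 0.840% with at least 5 and 8 sites, 3.45% with protein-coding starts only, 3.20% and 2.70% with windows of 500 bp and 3 kb around starts, 2.70% with sites at most 100 bp apart merged, 2.50% without chromosomes 10 and 15, and 2.83% without multicopy sites. The share of chains with most sites in a protein-coding gene, 50.6%, was 36.4% with gaps of 2500 bp, 66.7% among wide sites and 54.8% with all annotated genes. The AP-1 difference, -2.45 points, was -8.76 and -1.24 with gaps of 2500 and 10000 bp, -1.21 among wide sites, -4.99 with at least 8 sites and -4.83 over the whole site. The width difference, -71 bp, was -201 bp with gaps of 2500 bp, -91 bp with at least 8 sites and 14 bp, the opposite direction, with gaps of 10000 bp; the cause was not tested. The interval of the AP-1 difference among wide sites, which rests on 3 chains, runs from -12.0 to 21.3. The alternatives without multicopy sites and without the Col3a1 and Col5a2 chains were chosen after seeing the data. With positions alone, neither the strength of a site nor its presence in a given library or time point can be read, and a broad stretch called as several narrow sites counts as several.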
